A study of Homo sapiens with 95 samples.

Results

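The genes of the proteasome were followed across 8 populations of AALE cells, an immortalized line of human bronchial epithelium, under 4 chemicals. Members were chosen by symbol: those starting with PSMA to PSMG and a number, together with POMP, with a mean count above 1 over all 95 wells. Of the 23895 genes listed, 53 symbols matched and 50 passed. Among these 50, 47 encode proteasome subunits, activators, an inhibitor or assembly factors, and all counts below refer to them. The other 3 symbols, PSMC3IP, PSMD5-AS1 and PSMG3-AS1, name no part of the proteasome. PSMD6-AS2, PSMA8 and PSMB11 did not pass the filter: PSMA8, an alpha subunit of the testis, had 1 count in all wells together, and PSMB11, the beta subunit of the thymus, had 0.

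The proteasome is the protease that breaks down proteins marked with ubiquitin. Its core particle is a barrel of alpha rings, which gate the entrance, around beta rings, which hold the active sites. The regulatory particle that caps it has a base of ATPases that unfold the substrate and a lid that removes the ubiquitin. In cells exposed to interferon the catalytic beta subunits are replaced by those of the immunoproteasome, and the PSME genes encode other caps. NFE2L1 is the main transcription factor of proteasome genes when the protease is inhibited, and NRF2, a factor of the oxidative stress response, is known to act on some of them.

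Expression was measured by 3′ digital gene expression, in which each captured transcript gives 1 tag at its 3′ end and a unique molecular identifier (UMI) lets every molecule be counted once. In 4 populations a gene was overexpressed, either NFE2L2, whose protein is NRF2, or PIK3CA, NRG1 or FGFR1, and their control had an otherwise empty vector with the HcRed reporter. The CRISPR populations had FAT1 or CDKN2A knocked out and had as control cells given the Cas9 and EGFP plasmid PX458 without a guide RNA, here called GFP. Each population received DMSO, the vehicle, or 24 µg/ml of CSC, a condensate of cigarette smoke, or benzo[a]pyrene (BaP), a polycyclic aromatic hydrocarbon of smoke, at 173 µM, or the tobacco nitrosamine NNK at 490 µM. Neither the labels nor the study's methods give the time of exposure, the promoter of the vectors or whether a knockout line was 1 clone, and the doses differ, so the chemicals are compared only as used. The 82 wells with replicate numbers of 1 digit formed 31 groups, of which 25 had 3 wells. They held from 692446 to 1895735 UMI counts, with a median of 1293615, and the median was higher under DMSO (1426280) than under CSC (1318389), BaP (1255412) or NNK (1171386).

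The labels were checked first. Each targeted gene differed from its control in the labelled direction, from a log2 fold change of 7.65 for NRG1 down to -0.89 for CDKN2A and -2.47 for FAT1. All 8 airway basal epithelial markers examined were detected in every well, KRT5 at 105 to 345.7 CPM (counts scaled to a common library total). Some were low, down to 1.54 CPM for KRT14, 5.53 for SFN and 9.09 for TP63. Of the 13 markers of leukocytes, fibroblasts and endothelium 3 (CD3E, CDH5 and VWF) were at 0 throughout. Of the other 10 the highest were CD68, a lysosomal protein abundant in macrophages, with a median of 16.6 CPM and up to 37.2, LYZ with a median of 3.8, DCN with up to 15.8 and PECAM1 with up to 5.42 CPM. Their part in the results was not tested. One library stood furthest apart. Between replicates of a group the chi-square of the counts, divided by its degrees of freedom, was 1.44 at the median and stayed at or below 2.89 outside NRG1 cells under NNK, where it reached 11.8 for pairs with replicate 2. Smaller gaps were seen elsewhere. Under DMSO it was 2.76 and 2.89 for pairs with replicate 2 of CDKN2A, against 1.195 for the other pair. For pairs with replicate 3 of FGFR1 it was 2.3 and 2.62, against 1.17. In replicate 2 of NRG1 under NNK 24 of the 47 proteasome genes lay below both other wells of the group and 17 above both. PSMB1 stood at 1274 CPM there against 1560 and 1575, while PSMD2 stood at 214.9 CPM against 92.2 and 91.7. Counts of genes called under NNK are therefore given with and without it. In each plate row all wells had 1 chemical and populations kept their columns, so plate position cannot be told apart from either factor. The 6-base well barcodes held on average 1 G or C under DMSO, 1.24 under CSC, 4.74 under BaP and 5 under NNK, and the part of barcode composition in the results was not tested. The wells are lysates of whole cultures, so a change in the mix of cells and a change in RNA per cell cannot be told apart.

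Levels differed widely, within each part of the particle as well as between parts. Together the 47 genes took 1.72% of all counts, with mean levels from 2.88 CPM for the lid subunit PSMD3 to 1722 CPM for the alpha subunit PSMA2 and a median of 180.1 CPM. CPM is not divided by length here, since a transcript gives a single tag, but capture at the 3′ end can still differ between genes. The 7 alpha subunits had a median of 737.8 CPM, from PSMA7 (382.6) to PSMA2, and the 7 standard beta subunits a median of 454.8 CPM, from PSMB6 (92.4) to PSMB1 (1538). The 9 base subunits, median 124.5 CPM, ran from PSMD4, a ubiquitin receptor (67.4), to the ATPase PSMC2 (461.1), and the 8 lid subunits, median 71.3 CPM, from PSMD3 to PSMD14, the enzyme that cuts ubiquitin off the substrate (426.5). Among the assembly factors, median 34.3 CPM, POMP, the maturation chaperone of the core, was highest at 1352 CPM and PSMG4 lowest at 10.3 CPM. The 3 immunoproteasome subunits were low: PSMB8 averaged 38.7 CPM and PSMB9 8.78 CPM, and the median of the 3 was 9.24. PSMF1, the inhibitor PI31, averaged 48.5 CPM.

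CSC was compared with DMSO in the 5 populations with 3 wells under both, HcRed, NRF2, PIK3CA, GFP and FAT1. Of the 47 proteasome genes 14 were higher at an adjusted p-value below 0.05 and 0 were lower, against 2.95% of all tested genes called higher. Because these are well-counted genes, a closer background is the 1750 genes at or above the members' lower quartile of level. Of these 19.7% were called in either direction, 149 higher and 195 lower. Members below that quartile stay in the members' counts, so the sets are not matched in level. All 7 standard beta subunits and 3 of 7 alpha subunits were called higher, and all 7 alpha subunits had values above 0. The median log2 fold change was 0.15 over the 14 core genes and -0.001 over all genes. The rises were small. PSMB7, the trypsin-like subunit, rose by 0.23 on the log2 scale (SE 0.04, limma adjusted p = 9.8e-07), PSMB5, the chymotrypsin-like subunit, by 0.21 (SE 0.04, limma adjusted p = 6.54e-06), and PSMB6, the caspase-like subunit, by 0.21 (SE 0.06, limma adjusted p = 0.0151). PSMB6 was no longer called without replicate 1 of FAT1 under DMSO. POMP rose by 0.19 (SE 0.03, limma adjusted p = 1.75e-08), and lay above every DMSO well in all 5 populations, as did PSMA1, PSMA3, PSMB1 and PSMB2. Outside the core and POMP the calls were the ATPases PSMC1 and PSMC2 and the lid enzyme PSMD14. All 9 base and all 8 lid genes, most of them less counted than the core, had values above 0, with medians of 0.07 and 0.11. None of the 3 immunoproteasome genes, 4 PSME genes or PSMF1 was called: PSMB8 had a log2 fold change of 0.03 (SE 0.08) and PSME1 of -0.03 (SE 0.05).

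Under BaP, compared in NRF2, NRG1, PIK3CA, GFP and FAT1 cells, 23 of the 47 genes were higher and 0 lower, against 5.04% of tested genes called higher. Among the 1767 well-counted genes 30.6% were called in either direction, 324 higher and 217 lower, with a median log2 fold change of 0.019. In the core 12 of 14 genes were called, with a median log2 fold change of 0.16. The less counted lid had a median of 0.14, with all 8 genes above 0 and 3 called. Over the 9 base genes the median was 0.045, with 4 called. The 3 immunoproteasome genes, counted least, had a median of 0.24, with 1 called. Shares of calls therefore do not rank the parts by size of change. PSMB5 rose by 0.39 (SE 0.04, limma adjusted p = 3.54e-14), PSMB6 by 0.36 (SE 0.06) and PSMC5, an ATPase of the base, by 0.32 (SE 0.05). In contrast to CSC, calls under BaP included the immunoproteasome subunit PSMB8, at 0.35 (SE 0.08, limma adjusted p = 0.000748), and PSME1 and PSME2, which form the PA28 cap that goes with the immunoproteasome, at 0.17 (SE 0.05) and 0.16 (SE 0.03). PSMB8 was higher in the mean in 5 of 5 populations, with all wells above DMSO in 3. PSMB9 and PSMB10, much less counted, had log2 fold changes of 0.09 (SE 0.17) and 0.24 (SE 0.17) and were not called.

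PSMB5 is given well by well for FAT1 and NRF2 cells, where all treated wells lay above DMSO. Over all populations this was so in 3 of 5 under CSC, 4 of 5 under BaP and 6 of 7 under NNK, while in PIK3CA cells, for instance, CSC wells at 384.5 to 477.7 CPM overlapped with DMSO wells at 353 to 421.7. In FAT1 cells it measured 307.3, 291.7 and 303.2 CPM under DMSO, 390.4, 342.2 and 369.2 under CSC, 429.4, 421.5 and 407.1 under BaP and 433.7, 435.2 and 411.8 under NNK. All 9 treated wells lay above the 3 DMSO wells, and the CSC wells lay between the DMSO wells and the others. In NRF2 cells it measured 440.7, 387.1 and 369.5 CPM under DMSO, 519.2, 476.7 and 442.5 under CSC, 513.2, 532.9 and 495.3 under BaP and 557, 486.6 and 522.6 under NNK. There the DMSO wells stayed below all others, while CSC wells reached into the range of BaP and NNK.

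**Figure D1:**
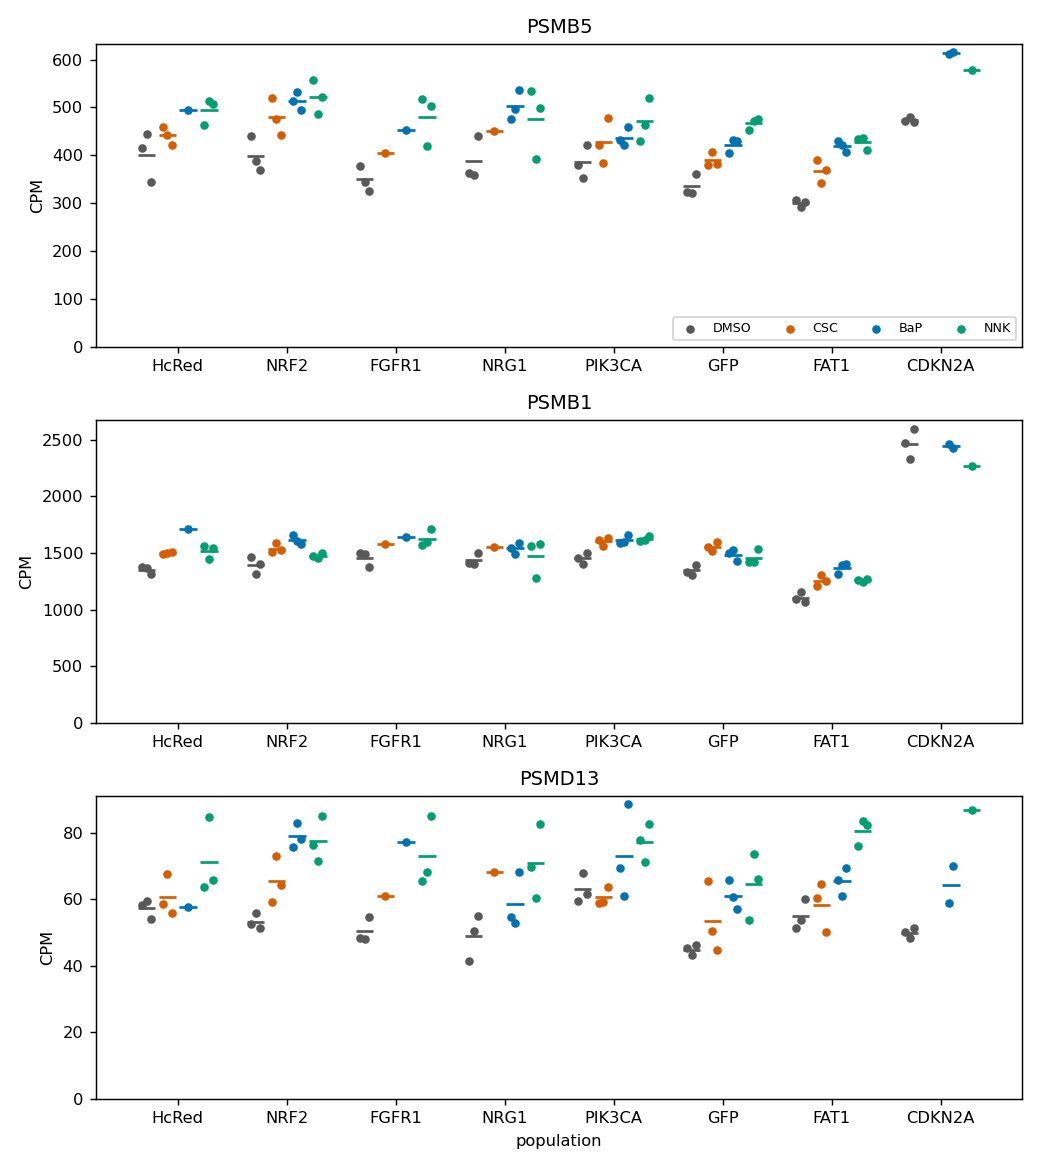
CPM (vertical axis, from 0) of PSMB5, PSMB1 and PSMD13 in each of the 82 wells, by population and chemical, with points for wells and a short line for the mean of a group. PSMB5 was higher in the mean under NNK than under DMSO in 7 of 7 populations with 3 wells of both, and PSMB1 stands highest in CDKN2A cells, at 2332 to 2597 CPM under DMSO.

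The direct comparison of CSC and BaP, in the 4 populations with 3 wells of both, put 8 of the 47 genes lower under CSC and 0 higher. Of tested genes 3% were called lower. Among the 1745 well-counted genes 252 were called lower and 68 higher, together 18.3%, close to the 17% over all 47 members. The activators PSME1 and PSME2 differed by -0.25 (SE 0.05, limma adjusted p = 0.000584) and -0.21 (SE 0.04, limma adjusted p = 1.92e-05). PSMB8 differed by -0.34 (SE 0.09, limma adjusted p = 0.0146), a call lost without replicate 2 of NRF2 under CSC, and PSMB5 by -0.17 (SE 0.04). The remaining calls were PSMA4 and PSMB1 in the core, PSMC5 in the base and PSMD13 in the lid. Over the 14 core genes the median difference was -0.03 and the values ran from -0.17 to 0.01. In GFP cells PSMB8 measured 24.2, 21.1 and 16.8 CPM under CSC and 30.2, 29.8 and 22.5 CPM under BaP, with 1 CSC well above the lowest BaP well, against 17.6, 15.8 and 22 CPM under DMSO.

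NNK was compared with DMSO in 7 populations. Of the 47 genes 5 were called, all higher, against 3.07% of tested genes called higher. Among the 1799 well-counted genes 14.1% were called in either direction, 149 higher and 105 lower. The 5 members were PSMD13, a lid subunit, at 0.51 (SE 0.07, limma adjusted p = 9.95e-09), PSMB5 at 0.43 (SE 0.06), PSMC5 at 0.43 (SE 0.06), PSMB6 at 0.41 (SE 0.06) and PSMB1, a non-catalytic beta subunit, at 0.17 (SE 0.05, limma adjusted p = 0.0158). The count rested on 1 library. Without replicate 2 of NRG1 under NNK, 25 members were called, 24 higher and 1 lower, among them 13 of the 14 core genes, against 19.9% of all 11279 tested genes. The share among well-counted genes, the closer background, is not given for that fit. With the well kept it was 14.1% where 7.22% of all genes were called. The median over the 47 genes without the well was 0.13. PSMB5 was then at 0.49 and PSMD13 at 0.56, and the 1 lower gene was PSME4, the PA200 cap, at -0.36 (limma adjusted p = 0.0155). Leaving out 1 of 10 other wells gave 8 calls each: replicates 3 of PIK3CA, HcRed and NRG1, 2 of FGFR1 and 2 and 3 of GFP under DMSO, and replicates 1 and 2 of PIK3CA, 2 of GFP and 1 of NRF2 under NNK.

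PSMD13 separated most evenly under NNK. It measured 58.2, 59.6 and 54.2 CPM in HcRed cells under DMSO and 63.6, 84.8 and 65.7 CPM under NNK. In FAT1 cells PSMD13 measured 51.4, 53.8 and 60.2 CPM under DMSO and 76.1, 83.6 and 82.3 CPM under NNK. All NNK wells lay above all DMSO wells in these and in each of the 7 populations. By comparison 8 of 47 proteasome genes had all NNK wells above all DMSO wells within FAT1 cells and 4 had all below, where 5.17% and 13.9% of all genes did. Under CSC the corresponding counts above ran from 12 to 18 of 47 over 5 populations, where 5.48% to 8.73% of all genes did.

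**Figure D2:**
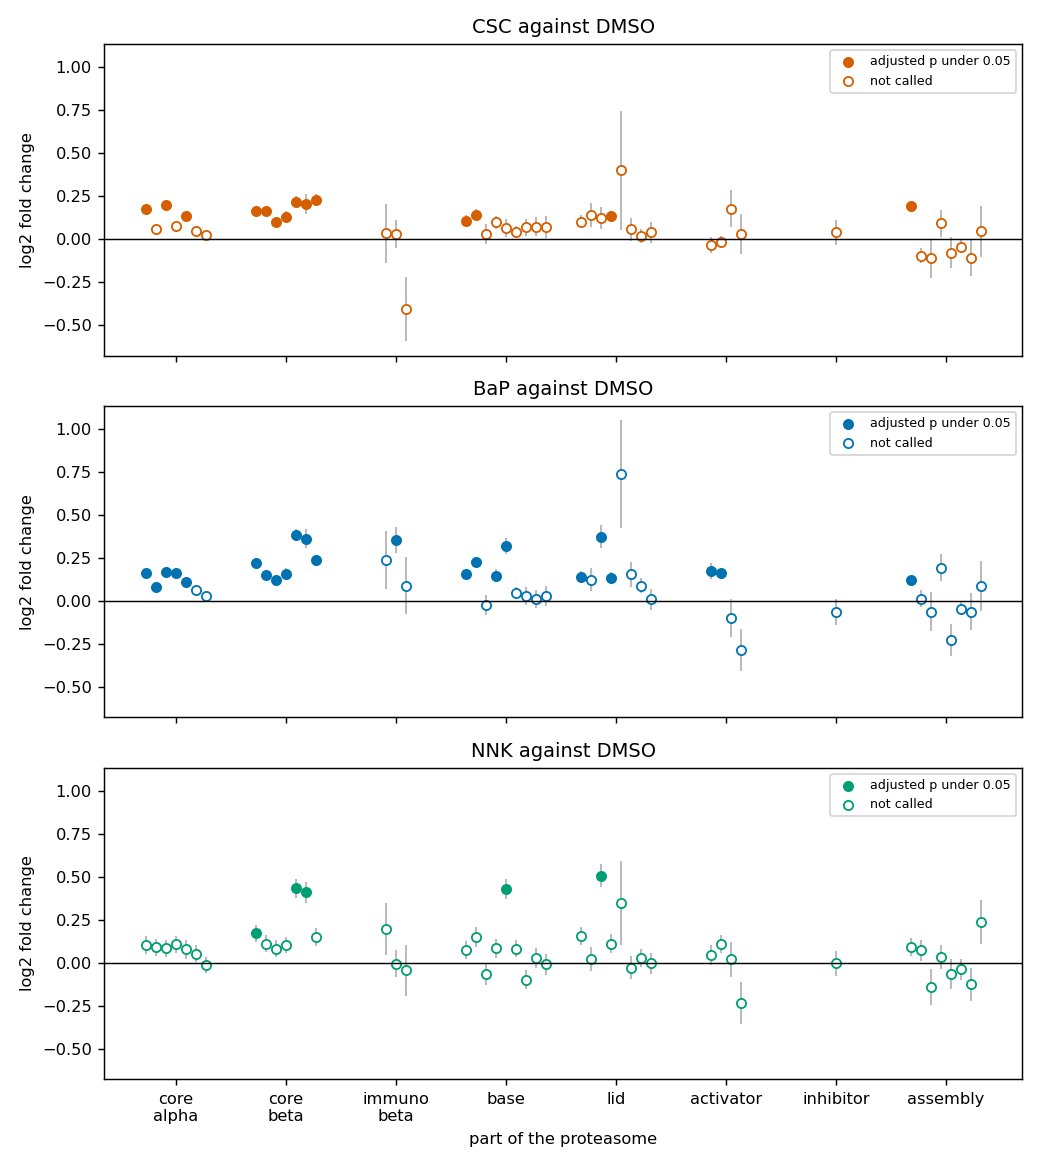
Log2 fold change (vertical axis) of each of the 47 proteasome genes against DMSO under CSC, BaP and NNK, by part of the proteasome, with error bars of 1 SE and filled points for genes called by limma. All 7 standard beta subunits are called under CSC and under BaP, and 3 of 7 under NNK, which became 7 of 7 without replicate 2 of NRG1 under NNK.

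The 14 genes higher under CSC were all among the 23 higher under BaP, and so were the 5 higher under NNK. PSMB1, PSMB5 and PSMB6 were called under all chemicals. Without replicate 2 of NRG1 under NNK all 14 genes higher under CSC were called under all chemicals, and 3 of the 24 then higher under NNK, PSMA6, PSMC6 and PSMD10, were outside the 23 of BaP. DMSO wells are shared between these comparisons, so the shared calls are not independent. PSMB8 expressed per 100 counts of PSMB5, the standard subunit it replaces, was lower in the mean under NNK than under DMSO in 7 of 7 populations. The wells overlapped in all of them but FAT1 and FGFR1. The largest step was in FAT1 cells, from 7.43 ± 0.49 (SD, n = 3) under DMSO to 3.57 ± 1.00 (SD, n = 3) under NNK, or 0.48 of the DMSO mean, and in the other 6 populations the NNK mean was 0.66 to 0.85 of the DMSO mean. That ratio moves with PSMB5 as well as with PSMB8, and PSMB8 itself had a log2 fold change of -0.01 (SE 0.08) under NNK.

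Promoter sequences were taken from RefSeq, from 250 bases before to 50 bases after the start of the gene in a GRCh38.p14 table, and placed on hg19 by exact match. They were found for 41 of the 47 genes, and PSMA7, PSMB1, PSMB6, PSMB7, PSMD4 and PSMG3 had no entry. The core letters of the antioxidant response element, TGACNNNGC on either strand, to which NRF2 and NFE2L1 are known to bind, were in 13 of the 41 promoters (31.7%) and in 3702 of all 27305 promoters of that length (13.6%). Of the 20 genes with a promoter that were higher under at least 1 chemical 4 held the letters (PSMB3, PSMC4, PSME1 and PSME2), and of the 21 others 9 did. A match of letters is a description and not a bound site. The promoters of the subunit PSMB5, with the smallest adjusted p-value under BaP, and of PSMB8, which replaces it, are shown beside 2 that hold the letters, PSMB3 and PSMB9. Capitals mark the match, which starts 104 bases before the RefSeq start in PSMB3 and 148 before that in PSMB9, there on the reverse strand.
PSMB5: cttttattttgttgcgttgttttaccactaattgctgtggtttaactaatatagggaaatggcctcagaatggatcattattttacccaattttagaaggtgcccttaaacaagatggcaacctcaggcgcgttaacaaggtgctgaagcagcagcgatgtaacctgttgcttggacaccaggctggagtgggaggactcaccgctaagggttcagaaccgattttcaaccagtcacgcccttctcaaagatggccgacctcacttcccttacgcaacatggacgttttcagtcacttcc
PSMB8: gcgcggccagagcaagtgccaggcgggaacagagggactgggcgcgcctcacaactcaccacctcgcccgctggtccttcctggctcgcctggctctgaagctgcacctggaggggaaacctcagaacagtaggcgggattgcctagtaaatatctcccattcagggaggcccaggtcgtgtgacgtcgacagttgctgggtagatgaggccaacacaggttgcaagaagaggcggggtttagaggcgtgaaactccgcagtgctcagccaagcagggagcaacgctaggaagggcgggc
PSMB3: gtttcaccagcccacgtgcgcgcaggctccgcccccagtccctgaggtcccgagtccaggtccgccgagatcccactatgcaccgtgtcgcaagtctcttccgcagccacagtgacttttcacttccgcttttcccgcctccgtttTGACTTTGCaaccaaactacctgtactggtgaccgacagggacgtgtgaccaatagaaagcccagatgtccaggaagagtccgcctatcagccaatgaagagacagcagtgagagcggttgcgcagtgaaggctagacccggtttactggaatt
PSMB9: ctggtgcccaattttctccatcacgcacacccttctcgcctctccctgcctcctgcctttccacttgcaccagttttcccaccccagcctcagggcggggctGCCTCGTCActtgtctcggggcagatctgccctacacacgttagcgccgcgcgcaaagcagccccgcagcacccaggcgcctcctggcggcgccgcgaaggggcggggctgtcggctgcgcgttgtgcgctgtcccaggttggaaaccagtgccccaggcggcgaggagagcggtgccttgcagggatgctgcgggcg
In hg19 these lie at chr14:23504380-23504679, minus strand, at chr6:32812407-32812706, minus strand, at chr17:36908744-36909043, plus strand, and at chr6:32821719-32822018, plus strand. Neither PSMB5 nor PSMB8 held the letters in these 300 bases. The RefSeq start of PSMB9 lies inside the longer span that GENCODE gives the gene, whose own start was not searched.

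Whether NRF2 changed the response to CSC was tested as an interaction in the 12 wells of NRF2 and HcRed cells. Of the 47 genes 0 were called by limma, 2 had an unadjusted p-value below 0.05, and edgeR and DESeq2 called 0 each, against 0.231% of tested genes called and 1.42% of well-counted ones. Over the 14 core genes the differences between the responses ran from -0.18 to 0.05, with an SE of 0.10 for PSMB5 and 0.19 for PSMB6, and with these errors a difference of the size of the CSC effect itself would not have been detectable for them.

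The comparisons of populations used the 3 wells of each under DMSO. NRF2 cells differed from HcRed cells in 6 of the 47 genes, 5 higher and 1 lower, against 4.91% of tested genes called and 21.3% of well-counted ones. The higher genes were the alpha subunits PSMA2, at 0.31 (SE 0.04, limma adjusted p = 3.28e-10), and PSMA5, with PSMB1, the lid subunit PSMD8 at 0.46 (SE 0.12) and PSME2 at 0.24 (SE 0.06). PSMB5, PSMB6 and PSMB7 were not called, at 0.09 (SE 0.07), 0.23 (SE 0.13) and 0.11 (SE 0.08). The call of PSMD8 was lost without replicate 1 of HcRed or 3 of NRF2 and that of PSME2 without replicate 2 of HcRed or 1 or 3 of NRF2, while PSMA2 kept its call in each case. The count was 2 without replicate 3 of NRF2 and 3 without either replicate 1 of NRF2 or replicate 2 of HcRed. With the CSC and NNK wells added 11 were called, 7 higher and 4 lower. PSMA5 (limma adjusted p = 0.136) and PSMB1 (limma adjusted p = 0.0503) were then no longer called, and PSMB6 was, at 0.25 (limma adjusted p = 0.0258).

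PSMA7, an alpha subunit at chr20:60711789-60718496 on the minus strand of hg19, showed the clearest difference between populations. Under DMSO it measured 427, 391.2 and 419 CPM in HcRed cells, 202.2, 202.7 and 183 CPM in NRF2 cells and 211.3, 229.5 and 223.4 CPM in PIK3CA cells. The wells of both overexpression populations lay far below those of HcRed and overlapped with none. PSMA7 had a log2 fold change of -0.98 in NRF2 (SE 0.08, limma adjusted p = 2.44e-17) and of -0.83 in PIK3CA cells (SE 0.08, limma adjusted p = 6.76e-14), which share the HcRed wells. It was higher in NRG1 cells, at 535.2, 567.4 and 574.6 CPM, by 0.52 (SE 0.06, limma adjusted p = 1.27e-10). The same order was seen under NNK. Under NNK PSMA7 measured 188.7, 188.8 and 201.8 CPM in NRF2 cells, 216.7, 214.6 and 202.8 CPM in PIK3CA cells and 543.1, 595.3 and 564.4 CPM in NRG1 cells, against 363, 420.6 and 433.5 CPM in HcRed cells. With the other chemicals in the fit the differences were -0.99 for NRF2 and -0.87 for PIK3CA, whereas that for NRG1 was 0.44 and not called (limma adjusted p = 0.136), and 0.51 (limma adjusted p = 4.42e-13) once replicate 2 of NRG1 under NNK was left out. None of the other 6 alpha subunits was lower in NRF2 or PIK3CA cells. No change of PSMA7 was called under any chemical.

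**Figure D3:**
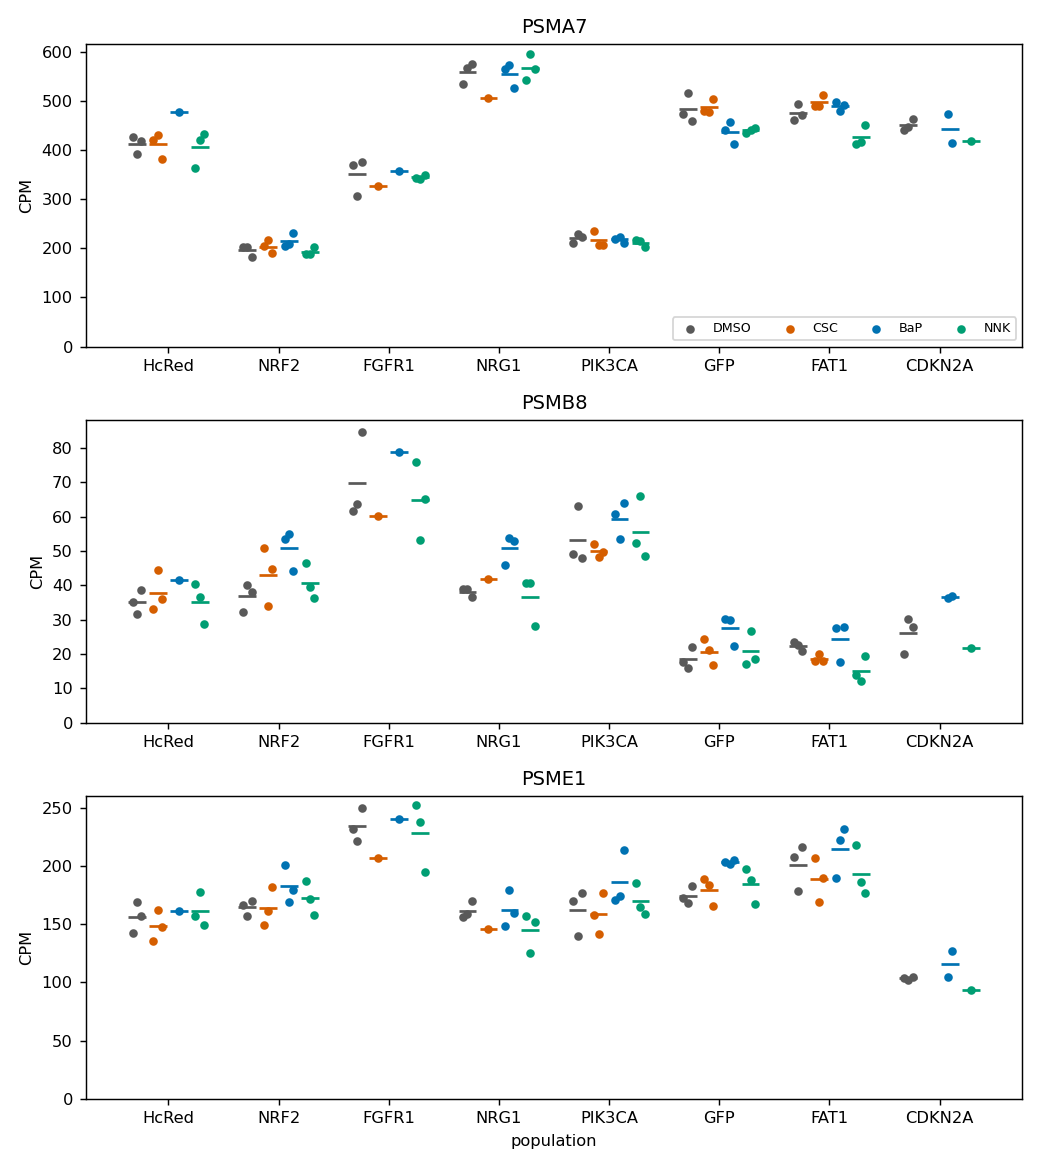
CPM (vertical axis, from 0) of PSMA7, PSMB8 and PSME1 in each of the 82 wells, by population and chemical, with points for wells and a short line for the mean of a group. PSMA7 sits between 183 and 230.3 CPM in NRF2 cells and between 202.8 and 235.6 CPM in PIK3CA cells under every chemical, and under DMSO PSMB8 and PSME1 stand highest in FGFR1 cells.

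FGFR1 cells differed in 4 genes, all higher, and all 4 belong to the immunoproteasome and its cap. Of tested genes 0.501% were called higher. Among the 1828 well-counted genes 2.46% were called in either direction, 22 higher and 23 lower. PSMB8 measured 61.7, 63.6 and 84.5 CPM in FGFR1 cells and 35.1, 31.6 and 38.7 CPM in HcRed cells, a log2 fold change of 0.96 (SE 0.18, limma adjusted p = 3.54e-05). PSMB9 (chr6:32811913-32827628 in GENCODE, plus strand of hg19), whose annotated span overlaps the start of PSMB8 (chr6:32808494-32812456) on the opposite strand, measured 16.6, 16.1 and 29.8 CPM against 5.99, 5.88 and 8.52 CPM, a log2 fold change of 1.51 (SE 0.34, limma adjusted p = 0.00217). For both genes the groups did not overlap, and replicate 3 of FGFR1 was the highest well. PSME1 measured 232, 221.4 and 250.1 CPM against 142.9, 169.1 and 157.2 CPM, at 0.57 (SE 0.13, limma adjusted p = 0.00143), and PSME2 differed by 0.43 (SE 0.11, limma adjusted p = 0.00721). PSMB10 was not called, at 7.62, 9.78 and 8.28 CPM in FGFR1 and 6.85, 9.56 and 10.8 CPM in HcRed cells, with a log2 fold change of -0.09. None of the 14 standard core genes was called in these wells, but with the NNK wells added PSMB2 was, at 0.20 (limma adjusted p = 0.0194), and PSMA7 at -0.24 (limma adjusted p = 0.0245). PSMB8 per 100 PSMB5 was 20.2 ± 5.07 (SD, n = 3) in FGFR1 and 8.96 ± 2.13 (SD, n = 3) in HcRed cells. Calls of single genes here depended on wells. PSMB9 was lost without replicate 2 of HcRed, PSME1 without replicate 1 of HcRed and PSME2 without any one well other than replicate 3 of FGFR1. The count was 2 without replicate 1 or replicate 2 of HcRed and 13 without replicate 3 of FGFR1, and with the NNK wells added it was 7, the third further gene being POMP at -0.19.

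NRG1 cells had 3 higher genes and 0 lower, against 2.08% of tested genes called higher. Among the 1797 well-counted genes 14.3% were called in either direction, 213 higher and 44 lower, against 6.38% of the members. The members include less counted genes, so these shares are not of sets matched in level. The 3 higher members were PSMA7, PSMB1 at 0.16 (SE 0.04) and PSMG2, a chaperone of the alpha ring, at 0.28 (SE 0.08, limma adjusted p = 0.0323). With NNK wells added 0 were called, and 7 once replicate 2 of NRG1 under NNK was left out. The call of PSMG2 was lost without any one well other than replicate 2 of NRG1, and that of PSMB1 without replicate 3 of NRG1.

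PIK3CA cells differed in 11 genes, 10 higher and 1 lower (PSMA7), against 5.4% of tested genes called and 22.1% of well-counted ones. Of the 14 core genes 8 were higher, 5 of them alpha subunits, with a median over the core of 0.18. The median was 0.067 over the 1788 well-counted genes, of which 296 were called higher and 99 lower, and -0.018 over all genes. PSMA6 measured 974.5, 953.1 and 950.5 CPM in PIK3CA and 813.8, 836.8 and 878.2 CPM in HcRed cells, with no overlap, at 0.25 (SE 0.05, limma adjusted p = 0.000561). PSMB7 was higher by 0.31 (SE 0.08) and PSMB2 by 0.23 (SE 0.05). The activator PSME2 measured 608.1, 602 and 542.5 CPM against 460.4, 453.7 and 459.2 CPM, at 0.42 (SE 0.06, limma adjusted p = 1.19e-06). PSMB8 measured 49, 63.1 and 47.9 CPM, all above HcRed, at 0.66 (SE 0.17, limma adjusted p = 0.0057), a call lost without replicate 2 of either population. PSME1 was not called, at 0.10 (SE 0.10).

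FAT1 knockout cells were compared with GFP cells. They differed in 16 genes, 8 higher and 8 lower, against 14.1% of tested genes called and 43.9% of well-counted ones. Calls went both ways in the core, the lid and the assembly factors, and the medians of the alpha, beta, base and lid genes lay between -0.009 and 0.055. In the lid PSMD7 and PSMD14, which pair to form its deubiquitinating unit, were both lower: PSMD7 measured 128.9, 95.7 and 125 CPM against 204.8, 193.6 and 200.1 CPM, at -0.74 (SE 0.10, limma adjusted p = 1e-08), and PSMD14 measured 292, 281.5 and 257.7 CPM against 419.6, 411.2 and 417.8 CPM, at -0.53 (SE 0.08, limma adjusted p = 3.02e-08). Neither gene had overlapping groups, whereas another lid gene, PSMD11, was higher at 0.35 (SE 0.09), a call lost without replicate 1 of GFP. PSMD10, the chaperone gankyrin of base assembly, measured 145.4, 137.6 and 104.9 CPM against 225.8, 213.5 and 239.7 CPM, at -0.75 (SE 0.10, limma adjusted p = 2.34e-09). POMP was lower at -0.35 (SE 0.05, limma adjusted p = 2.6e-08).

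Of the catalytic subunits in FAT1 cells PSMB6 measured 83.2, 99.7 and 107.2 CPM against 66.3, 53.2 and 54.3 CPM in GFP cells, at 0.79 (SE 0.14, limma adjusted p = 4.98e-06). PSMB7 measured 406.9, 420.8 and 388.1 CPM against 318.9, 333.1 and 311.6 CPM, at 0.40 (SE 0.08). Both had every FAT1 well above every GFP well, while PSMB5 was not called, at -0.10. PSMB9, at 10.8, 13.6 and 9.26 CPM against 4.2, 6.65 and 2.2 CPM, was called at 1.49 (SE 0.41, limma adjusted p = 0.00545), a call on few counts that was lost without replicate 3 of GFP. PSMB8, at 0.33, was not called. Among the other core genes PSMA1 and PSMB4 were higher, and PSMA3 and PSMB1 lower, PSMB1 losing its call without replicate 3 of GFP. The lower genes of the base were PSMC1 and PSMD2, and PSME2 and PSMG2 were higher. With the wells of all 4 chemicals in the fit 34 of the 47 genes were called, 21 higher and 13 lower, including all 16. The share of all genes called in that larger fit is not given here, so this count has no background beside it.

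CDKN2A knockout cells, also against GFP, differed in 15 genes (31.9%), 10 higher and 5 lower, against 17.9% of tested genes called and 45.4% of well-counted ones. The members include less counted genes, so their share and that of well-counted genes are not of sets matched in level. The count was 10 without replicate 3 of GFP and 22 without replicate 2 of CDKN2A. PSMB1 measured 2467, 2332 and 2597 CPM in CDKN2A and 1329, 1309 and 1397 CPM in GFP cells, at 0.76 (SE 0.09, limma adjusted p = 8.65e-12). PSMB4, another non-catalytic beta subunit, was higher by 0.53 (SE 0.11) and the catalytic PSMB5 by 0.39 (SE 0.11, limma adjusted p = 0.00658), a call lost without replicate 2 of GFP. PSMD2, the base scaffold that receives ubiquitin carriers, measured 214.8, 330.5 and 216.2 CPM against 115, 117.1 and 123.2 CPM, at 0.95 (SE 0.13, limma adjusted p = 1.14e-08), and the lid subunits PSMD11 and PSMD12 were higher by 0.83 (SE 0.12) and 0.86 (SE 0.17). In all of these the groups did not overlap.

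All 4 activator genes were called in CDKN2A cells, in opposite directions. PSME1 measured 103.8, 102.2 and 104.9 CPM against 172.9, 168.6 and 182.5 CPM, at -0.86 (SE 0.14, limma adjusted p = 2.87e-07), and PSME2 was lower by -0.37 (SE 0.11, limma adjusted p = 0.0117). PSME3, the nuclear PA28 gamma cap, and PSME4 were higher by 0.79 (SE 0.24, limma adjusted p = 0.0129) and 0.93 (SE 0.26, limma adjusted p = 0.00529). PSME2 lost its call without any 1 GFP well, PSME3 without replicate 1 or 3 of GFP and by DESeq2, and PSME4 without replicate 3 of GFP, so that PSME1 was the activator whose call did not depend on a well. Lower too were the ATPase PSMC3 at -0.59 (SE 0.17), POMP at -0.40 (SE 0.09) and PSMG2 at -0.42 (SE 0.12), the first lost without replicate 3 and the last without replicate 2 of GFP. Summed over the 7 standard beta subunits, CDKN2A cells held 6997 ± 304.9 CPM (SD, n = 3) under DMSO, while the means of the other populations ran from 4644 to 5063 CPM. Such a sum is weighted to the most counted genes, here PSMB1 at 2332 to 2597 CPM in CDKN2A cells. In the fit against GFP 3 of the 7 were called, all higher, and 1 had a negative value. The median log2 fold change over the 7 was 0.22.

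The control populations themselves differed. GFP against HcRed gave 14 of the 47 genes called, 12 higher and 2 lower, against 10.8% of tested genes called and 39.8% of well-counted ones. PSMB3, a non-catalytic beta subunit, measured 1430, 1478 and 1521 CPM in GFP and 1269, 1208 and 1279 CPM in HcRed cells, at 0.29 (SE 0.04, limma adjusted p = 1.22e-07). PSMD10 was higher by 0.38 (SE 0.09), POMP by 0.24 (SE 0.04) and PSMG2 by 0.35 (SE 0.08). PSMB8 was lower, at 17.6, 15.8 and 22 CPM against 35.1, 31.6 and 38.7 CPM, a log2 fold change of -0.86 (SE 0.21, limma adjusted p = 0.0041). The other lower gene, PSMA2, at -0.11 (SE 0.04, limma adjusted p = 0.0326), was lost by edgeR, DESeq2 and the median-ratio scaling, and without replicate 1 or 3 of HcRed or 2 or 3 of GFP. The count was 8 without replicate 3 of GFP, 9 without replicate 3 of HcRed and 8 by DESeq2.

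**Figure D4:**
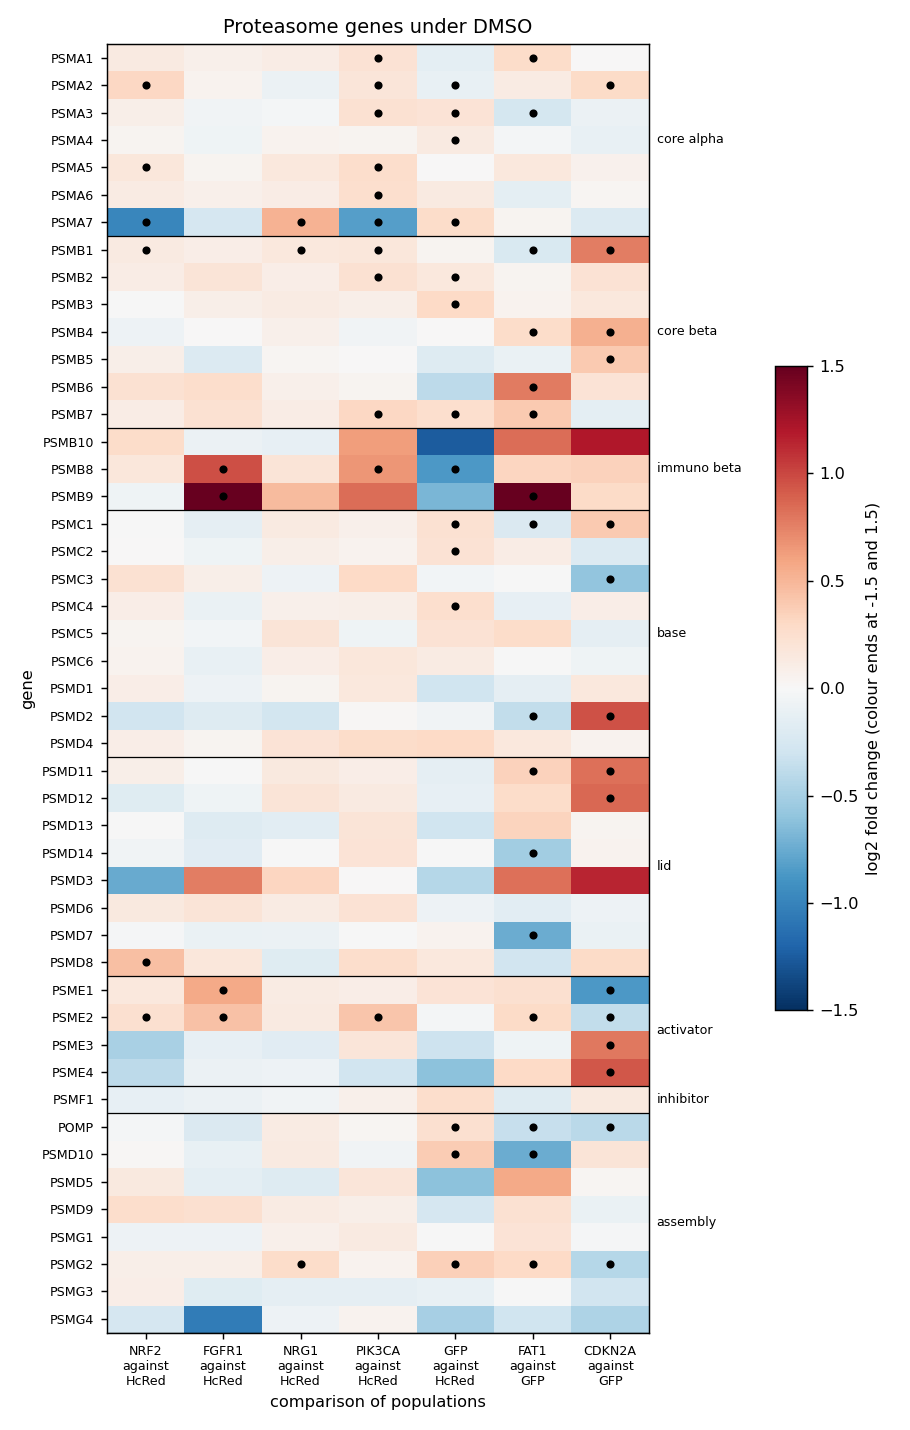
Log2 fold change (colour, with larger values shown at the ends of the scale) of the 47 proteasome genes (rows, by part of the proteasome) in 7 comparisons of populations under DMSO (columns), with dots for genes called by limma. PSMA7 is lower in NRF2 and PIK3CA and higher in NRG1 and GFP cells, and the 4 calls in FGFR1 cells are PSMB8, PSMB9, PSME1 and PSME2.

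In none of the 12 comparisons were 12 of the 47 genes called: PSMB10, PSMC6, PSMD1, PSMD3, PSMD4, PSMD5, PSMD6, PSMD9, PSMF1, PSMG1, PSMG3 and PSMG4. Several of these were among the least counted members, PSMD3 at 2.88 CPM and PSMG4 at 10.3 CPM, for which changes of the size seen in the core were not detectable at this depth. Under at least 1 other setting 8 of the 12 were called. With all chemicals in the FAT1 fit PSMC6 (-0.11), PSMD1 (-0.24), PSMD4 (0.20), PSMD5 (0.49), PSMD9 (0.32) and PSMG1 (0.31) were, and PSMC6 was higher under NNK without the outlying well, at 0.12 (limma adjusted p = 0.00202). The other 2 were PSMB10 and PSMD3, and PSMD6, PSMF1, PSMG3 and PSMG4 were called under none of those tried. The inhibitor PSMF1 had log2 fold changes of 0.04 under CSC, -0.06 under BaP and -0.004 under NNK.

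Genes that work with the proteasome, from a list of 36 of which 34 were tested, covered associated proteins, shuttles and the unfoldase p97, ubiquitin genes and transcription factors. Under CSC 4 were higher and 1 lower, 14.7% of those tested, against 5.81% of all genes and 19.7% of well-counted ones in either direction. SQSTM1, the ubiquitin-binding autophagy receptor p62, had a log2 fold change of 0.69 (SE 0.10, limma adjusted p = 5.88e-08), MAFG, a small MAF partner of NRF2, 1.01 (SE 0.23), and UBB, which encodes polyubiquitin, 0.09 (SE 0.02). The lower gene was RPS27A, a fusion of ubiquitin with a ribosomal protein. Under BaP 5 were higher (14.7%, against 9.16% and 30.6%), among them SQSTM1 by 1.01 (SE 0.10, limma adjusted p = 2.49e-13), UBB by 0.23 (SE 0.02) and SHFM1 and UFD1L by less. SHFM1 is itself a small lid subunit, kept out of the members because its symbol does not match the rule. PAAF1, which binds base ATPases, was among the genes higher under NNK. Neither NFE2L1 nor NFE2L2 was called under any of the chemicals. In NRF2 cells 5 were higher, among them UBB, SHFM1 and NFE2L2 itself, and ZFAND2A was lower (17.6%, against 4.91% and 21.3%). In PIK3CA cells NFE2L1 was lower at -0.87 (SE 0.27, limma adjusted p = 0.0335), with 2 higher and 2 lower genes in all (11.8%, against 5.4% and 22.1%), and in FGFR1 cells 0 of 34 were called by limma, against 0.914% and 2.46%, where 4 had an unadjusted p-value below 0.05, edgeR called 1 and DESeq2 0. In CDKN2A cells SQSTM1 was higher by 1.26 (SE 0.25) and p97, encoded by VCP, lower at -0.61 (SE 0.22, limma adjusted p = 0.0454), with 4 genes called each way (23.5%, against 17.9% and 45.4%).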

How the data were processed

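UMI counts per gene from 95 wells of AALE cells were used as deposited by the authors, who received them already quantified. Per the labels reads were aligned to hg19 with BWA 0.7.10, and each UMI added 1 count to a gene, matched to a single gene according to the study's methods. Genes with near-identical pseudogene copies are uncertain in level. No row lacked a gene name. Groups came from sample titles. The 82 wells with 1-digit replicate numbers were tested, and 13 with 2-digit numbers were set aside. Total counts (692446 to 1895735 per well) set the precision. The study calls its replicates biological, but the sources used here do not say whether wells came from separate cultures or days, so p-values measure the spread between these wells, which may be in part technical.

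In R 4.3.3, limma 3.58.1 with voom weights and TMM factors (edgeR 4.0.16) was fitted to the compared groups. Genes needed a mean count above 1 in those wells. Tests were two-sided, and p-values were adjusted by Benjamini-Hochberg over all genes tested, with a threshold of 0.05. Chemical effects had population as a covariate. Prior degrees of freedom ran from 40.5 to 100.3, and were unbounded for FGFR1, so small p-values rest largely on variance shared between genes. Fold changes are log2 with TMM factors. CPM values are counts scaled to the plain total of the well. Alternatives were edgeR's quasi-likelihood test, DESeq2 1.42.0, median-ratio size factors, no filter, a replicate block, other sets of wells and each well left out. The scripts were tested on simulated counts.

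Named are PSMB5 to PSMB10, PSME1 to PSME4, POMP, PSMF1, and up to 6 higher and 6 lower members per comparison with the smallest adjusted p-values. PSMD13 and PSMC5 were followed across chemicals, and the PSMD2 values of the outlying well and the other genes past the threshold were named, after their values were seen. The members, classes and lists were chosen with earlier results of these data known. Positions are from GENCODE on hg19, and promoter sequences from RefSeq. Some genes of the list of genes that work with the proteasome are counted but not reported here by name.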

Additional observations from a re-analysis of the deposited data

Results flagged for a closer look

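The response to CSC differed between NRF2 and HcRed cells for RPS27A, the fusion gene of ubiquitin and a ribosomal protein, at -0.175 (SE 0.031, limma adjusted p = 0.000588, 3 wells a group), and for none of the 47 proteasome genes in the same limma fit.

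The 13 wells whose replicate numbers have 2 digits were kept out of the comparisons, since the labels do not say whether they are separate cultures, and were set beside the DMSO wells of their population. In CDKN2A cells 12 of the 14 genes called under CSC were above every DMSO well in all such wells, as were 18 of all 47 members, 5.46% of all genes and 12.3% of the 1748 well-counted ones. In FGFR1 cells it was also 12 of 14 (22 of 47, 11.8% and 21.4%), and in NRG1 cells 11 of 14 (22 of 47, 15.3% and 16.5%). Of the 23 genes called under BaP 17 were above in FGFR1 (19 of 47, 8.33% and 17.1%) and 14 in HcRed cells (17 of 47, 9.23% and 15.1%). Of the 5 genes called under NNK 4 were above in CDKN2A cells, where 8 of 47 members were above and 7 below, and 8.38% of all genes and 19.5% of well-counted ones were above. None of the called genes lay below every DMSO well. None of these populations entered the fit in which the genes of that chemical were called.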

How the results depend on the processing

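The count of called proteasome genes was within 1.5 times its reported value in 58 of 71 values under other tools, scalings, filters or sample sets and in 161 of 180 with 1 well left out. Under NNK (reported 5) it was 8 by edgeR, 13 by DESeq2, 8 with median-ratio size factors, 8 with the replicate block and 11 with all 95 wells. With every chemical that had 3 wells in both populations it was 11 for NRF2, 7 for FGFR1, 0 for NRG1 and 34 for FAT1. Shares of all genes called are not given for these fits, which hold more wells than those reported. After seeing the data the NRG1 fit was repeated without replicate 2 under NNK and gave 7. NRG1 gave 5 with median-ratio size factors and 5 without the filter on low counts, and GFP against HcRed gave 8 by DESeq2. Leaving out 1 well gave 5 to 25 under NNK, 2 to 5 for NRF2, 2 to 13 for FGFR1, 8 to 13 for GFP and 10 to 22 for CDKN2A. PSMB1 in NRG1 cells reversed to -0.009 (limma adjusted p = 0.997) with NNK wells added. The cause of these changes was not tested. Of 511 values of called genes under other settings 496 kept direction and call, and of 1260 with 1 well left out 1208 did. With the other chemicals CDKN2A was not fitted, since only DMSO had 3 wells in both.

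Pairing of same-numbered wells was not shown: the median correlation of their deviations ran from -0.089 to 0.094 over comparisons and no comparison had every pair above 0.1. In each comparison of chemicals 1 pair, replicate 1 of FAT1, was above 0.1, at 0.112 to 0.143. Counting noise lowers such correlations, so weak pairing was not excluded. With the replicate block the counts were 15 under CSC, 23 under BaP, 9 for CSC against BaP and 0 for the interaction, and among the populations 20 for FAT1, 16 for CDKN2A, 15 for GFP, 12 for PIK3CA, 6 for NRF2, 4 for FGFR1 and 3 for NRG1. Genes below about 10 CPM, such as PSMB9 and PSMD3, limit what could be detected.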

Other observations

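Over the 25 group means with 3 wells, genes were ranked by likeness to the mean log2 CPM of the 14 standard core genes. Members, the listed genes that work with the proteasome and the targeted genes were left out of the ranking. Most alike was YPEL5 (Pearson r = 0.793), followed by SOD1, the copper and zinc superoxide dismutase (0.739), SCCPDH (0.685), SRP14-AS1 (0.666) and MLX (0.664). Before genes were left out, 3358 were above 20 CPM. The group means share populations, chemicals and plate rows, and the values are a description. They include NRG1 cells under NNK with the outlying replicate 2, and the ranking without that well was not computed. Of the core genes themselves, PSMB4 had r = 0.714, PSMB2 0.711 and PSMB3 0.669 with that mean, which includes them, while PSMA2 had 0.102 and PSMA7 0.231. Outside the core PSMD11 had 0.669, PSMC2 0.533 and PSMC1 0.497, whereas PSME1 and PSMB8 had -0.115 and -0.074 and the ATPase PSMC3 had -0.467.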
